A study of Mus musculus with 16 samples.

Results

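Genes that write or read methylation of lysine 9 on histone H3 (H3K9) were followed in cultured mouse male germline stem cells. There are 10: Ehmt1, Ehmt2, Wiz, Setdb1, Suv39h1, Suv39h2, Trim28, Cbx1, Cbx3 and Cbx5. They were taken by gene symbol from the tables of 12 RNA libraries, which list 27128 genes each, and all 10 were found. All 10 also passed the filter on low values, an average level of 1 CPM or more (CPM, counts scaled to library size), as did 14301 genes in all.

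H3K9 methylation marks silent chromatin. G9a (encoded by Ehmt2) and its partner GLP (Ehmt1) place mono- and dimethylation at H3K9 in euchromatin and act as a heteromer, to which the zinc finger protein WIZ binds. SUV39H1 and SUV39H2 place trimethylation at pericentric heterochromatin. SETDB1 does so at retroelements and chosen genes, where zinc finger proteins recruit it through TRIM28 (KAP1). The chromodomain proteins of the HP1 family, HP1β (Cbx1), HP1γ (Cbx3) and HP1α (Cbx5), bind the methylated lysine. UNC0638 is a small molecule that inhibits the enzyme activity of G9a and GLP.

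All libraries came from germ cells of Pou5f1-EGFP reporter mice (strain label B6;CBA-Tg(Pou5f1-EGFP)2Mnn/J) at postnatal day 5.5. The cells were sorted as Oct4-positive and KIT-negative and grown with GDNF, bFGF and EGF. In the feeder-removal experiment, cells were taken on mouse embryonic fibroblast (MEF) feeders (day 0) and at days 4 and 9 on Matrigel, a basement membrane extract. The density experiment compared Matrigel coated at 0.1 µg/cm2, whose culture is labelled epithelial-like, with a coat of 10 µg/cm2, labelled mesenchymal-like. Cells at 10 µg/cm2 were also sorted by GFP into low, mid and high fractions (GFP-low, GFP-mid, GFP-high), where GFP is driven by the Pou5f1 (Oct4) transgene. In the inhibitor experiment, cells on MEF received the solvent DMSO or UNC0638 at 0.5, 1 or 2 µM, the inhibitor for 48 hours. Each group had 1 library, so differences below were not checked by replication and carry no p-value. Intervals are 95% intervals of the read split between libraries and cover counting error only. How far MEF feeder RNA entered the libraries of feeder cultures was not tested.

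Library totals ranged from 4335185 to 12019651 counts. All 20 of 20 germ cell markers had counts in each library, and their summed level ranged from 4749 CPM (mesenchymal-like) to 7154 CPM (GFP-low). The summed level of 20 fibroblast markers ranged from 112 to 334 CPM in the feeder-removal, GFP-sorted and epithelial-like libraries, where 1 to 3 of the 20 were at 0 (Fap in each). It was 6702 CPM in the mesenchymal-like library and 3225, 1103, 437 and 552 CPM with 0, 0.5, 1 and 2 µM UNC0638. The summed level of 16 macrophage markers was 2028 CPM in GFP-low, 1868 CPM in GFP-mid and 237 CPM in GFP-high cells, with counts for 16 of 16, and at most 78.5 CPM in the other 9 libraries, where C1qa or Itgam or both were at 0. In such bulk libraries, fewer cells of a type and less RNA per cell cannot be told apart.

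The bases before the transcription start of 3 members are shown because the results turn on them: Ehmt2 is the target of UNC0638, and Suv39h2 and Suv39h1 are paralogues of which the former had the widest range of the 10 genes in each experiment and the latter one of the narrowest over all libraries. They are RefSeq sequence of GRCm38.p6 (mm10), printed 5′ to 3′ in the direction of transcription, and none overlaps an annotated gene. That of Ehmt2 is chr17:34898224-34898462 on the plus strand, 239 bases that stop where the annotated gene begins. That of Suv39h1 is chrX:8074761-8075010, and that of Suv39h2 is chr2:3474987-3475236, both on the minus strand. Capitals mark the letters of the searched motifs, on either strand.
Ehmt2: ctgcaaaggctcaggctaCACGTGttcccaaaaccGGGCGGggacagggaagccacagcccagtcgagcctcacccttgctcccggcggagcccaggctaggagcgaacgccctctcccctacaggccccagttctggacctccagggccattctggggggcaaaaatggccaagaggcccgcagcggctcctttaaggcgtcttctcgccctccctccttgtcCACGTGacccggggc
Suv39h1: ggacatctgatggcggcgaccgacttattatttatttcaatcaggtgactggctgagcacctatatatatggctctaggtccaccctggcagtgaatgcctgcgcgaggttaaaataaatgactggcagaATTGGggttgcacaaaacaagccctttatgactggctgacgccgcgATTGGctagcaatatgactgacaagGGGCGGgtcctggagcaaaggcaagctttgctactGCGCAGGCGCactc
Suv39h2: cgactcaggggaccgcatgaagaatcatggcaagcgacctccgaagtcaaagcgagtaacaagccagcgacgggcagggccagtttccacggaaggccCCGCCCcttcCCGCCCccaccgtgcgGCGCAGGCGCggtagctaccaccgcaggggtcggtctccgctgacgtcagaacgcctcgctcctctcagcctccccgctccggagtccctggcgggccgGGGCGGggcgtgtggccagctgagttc
In the 250-base window of each member, the GC box letters GGGCGG occurred in 10 of 10 genes, against 32.7% of 32851 windows of that length. Each window ends at a listed transcript start, and not all of them lie before the annotated gene. Those of Cbx1 and Cbx3 lie inside it, and those of Ehmt1, Ehmt2, Wiz and Cbx5 enter it in part. How many of all windows do so was not counted. The NRF1 motif occurred in 4 of 10 members and 3.74% of all windows. The E-box letters CACGTG occurred in 2 of 10, Ehmt2 and Cbx5, and in 6.02% of all windows. CCAAT box letters occurred in 4 of 10 members and 33.8% of all windows, and the ETS letters CCGGAAG in 1 of 10 (Setdb1) and 6.91%. Neither the E2F letters TTTCCCGC (0.895% of all windows) nor the YY1 letters AAGATGGC (1.56%) occurred in a member's window. The G and C content of the members' windows was 49.6% to 73.2%, with a median of 52.4% over all windows. These matches are descriptions of letters, and the RNA libraries did not measure binding.

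Transcript levels per length, as deposited TPM (transcripts scaled to gene length and library), spanned a wide range among the members. Cbx3 was the most abundant with a median of 413 TPM over the 12 libraries (253 to 844), and Wiz the least with 14.9 TPM (4.06 to 20.7). Between them lay Trim28 (median 124 TPM), Suv39h1 (98.5), Ehmt2 (90.8), Setdb1 (82.2), Cbx1 (38.8), Suv39h2 (35.6), Ehmt1 (34.6) and Cbx5 (22.8). The ranges of neighbours in this order overlapped everywhere except between Setdb1 (58.9 to 102 TPM) and Cbx1 (28.9 to 49.6 TPM). Cbx3 exceeded Trim28 in 11 of 12 libraries, the exception being GFP-high, with 258 and 259 TPM. Ehmt1 was above Cbx5, and Cbx5 above Wiz, in 12 of 12.

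**Figure D1:**
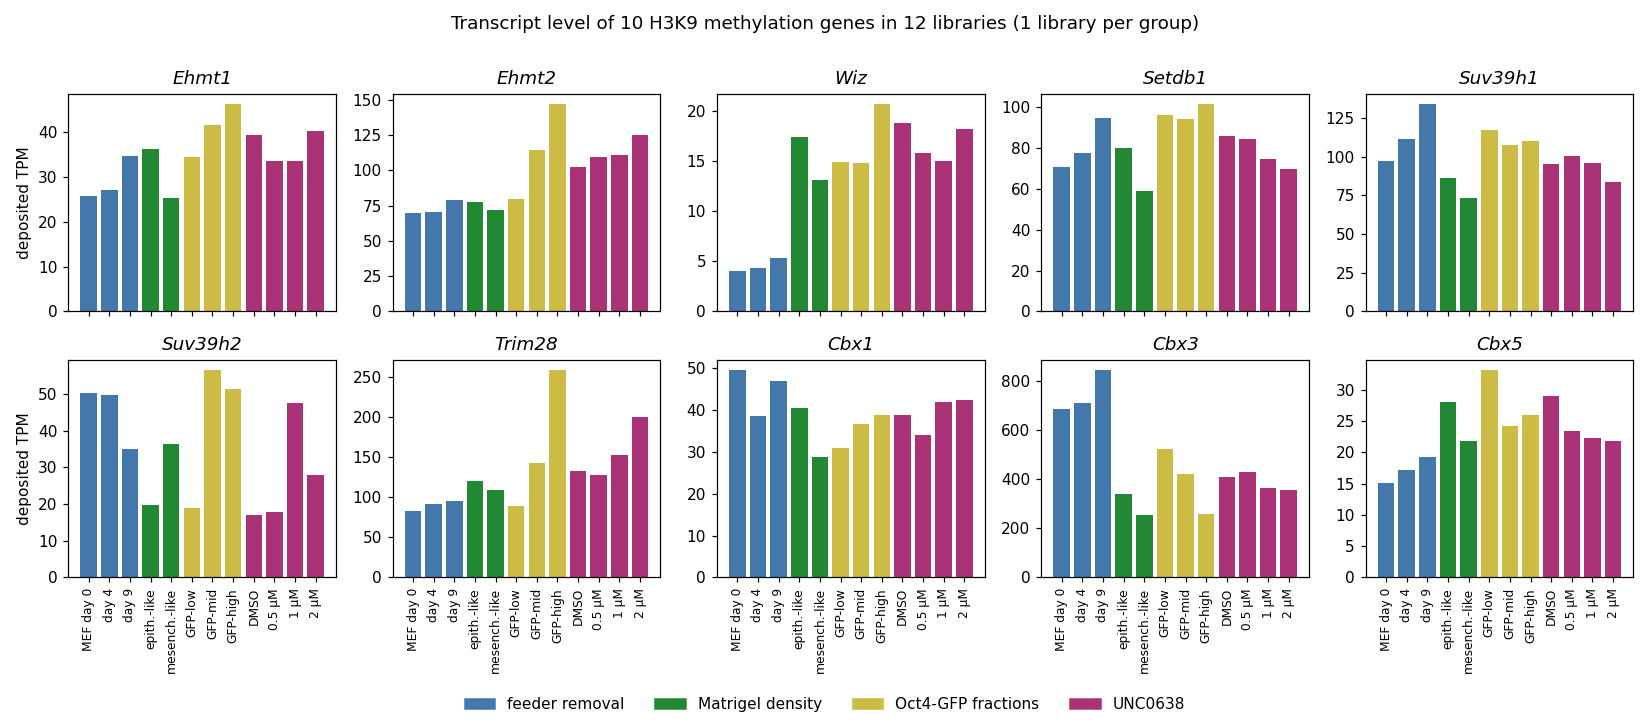
Deposited TPM (vertical axis, linear from 0, scaled per gene) of the 10 genes in 12 libraries, 1 bar per library, coloured by experiment. Wiz is lowest in the 3 feeder-removal libraries (4.06 to 5.32 TPM), Trim28 and Ehmt2 are highest in GFP-high (259 and 147 TPM), and Suv39h2 ranges from 17.0 (DMSO) to 56.5 TPM (GFP-mid).

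How far a member varied differed as much. Between the lowest and highest library, CPM differed 4.74-fold for Wiz, 3.34-fold for Cbx3, 3.20-fold for Suv39h2, 2.81-fold for Trim28 and 2.21-fold for Cbx5. It differed less than 2-fold for Ehmt2 (1.93), Ehmt1 (1.63), Cbx1 (1.61), Suv39h1 (1.47) and Setdb1 (1.44). Part of this lies between experiments, which were not made to be compared and whose technical batches cannot be told apart from their groups.

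The first question was whether the transcripts of the inhibitor's targets moved with the inhibitor. With DMSO, Ehmt2 stood at 240 CPM, and UNC0638 at 0.5, 1 and 2 µM gave 256, 259 and 293 CPM. These levels followed the order of the doses, though not when ratios were centred on the germ cell markers (log2 ratio -0.05 at 0.5 µM), and the step from DMSO to 0.5 µM lay within counting error (log2 ratio 0.09, interval -0.02 to 0.21). Levels at 0.5 and 1 µM were close (256 and 259 CPM), and no interval was computed between them. At 2 µM the log2 ratio was 0.29 (0.18 to 0.41), well under 2-fold. Ehmt1 stood at 115 CPM without the inhibitor and at 100, 103 and 124 CPM along its doses, lower at 0.5 µM (log2 ratio -0.19, -0.37 to -0.02) and not distinguishable from DMSO at 2 µM (0.11, -0.06 to 0.28). The ratio of Ehmt1 to Ehmt2 within a library, which does not depend on scaling between libraries, was 0.385 with DMSO (0.348 to 0.425 by TPM) and 0.306, 0.303 and 0.321 at the 3 doses. The intervals of the 0.5 and 1 µM libraries lay below that of the DMSO library, while that of the 2 µM library (0.290 to 0.355) overlapped it. On the log2 scale the ratio differed from DMSO by -0.33, -0.35 and -0.26 by TPM and by -0.29, -0.28 and -0.18 from counts, which leave the length of the transcripts out. Wiz, the G9a and GLP partner, was at 47.1, 39.5, 37.9 and 46.7 CPM, lower at 1 µM (log2 ratio -0.31, -0.59 to -0.04) and level with DMSO at 2 µM (-0.01, -0.29 to 0.26).

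Ehmt2 has 2 transcripts in the tables, and the deposited length of the gene is their mean, weighted by estimated use. That length was 3951, 3907, 3875 and 3845 bases with DMSO and 0.5, 1 and 2 µM UNC0638. It was thus longest of all 12 libraries with DMSO and shortest at 2 µM, in the order of the doses. Over the other 8 libraries it lay between 3859 and 3939 bases, with 3937 at day 0, so values inside most of this range also occurred without the inhibitor. Reads per transcript were not used here, so this shift has no counting interval. Ehmt1, with 2 transcripts as well, had a mean length of 5027 bases in 6 libraries, among them 1 and 2 µM, and 4852 to 4966 bases in the rest. Wiz and Cbx5 also have 2 transcripts, with spans of 37.5 and 0.15 bases, and the other 6 members have 1.

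In the other experiments, the point values of G9a and GLP transcripts were highest in GFP-high. For Ehmt1 those of GFP-high and GFP-mid were close (126 and 120 CPM), with no interval computed between them. From GFP-low through GFP-mid to GFP-high, Ehmt2 stood at 187, 256 and 310 CPM, with a log2 ratio of 0.73 (0.64 to 0.82) between high and low. Ehmt1 was at 105, 120 and 126 CPM (0.27, 0.14 to 0.40, and 0.44 when centred), so its ratio to Ehmt2 went from 0.434 to 0.361 to 0.314, and the 3 intervals did not overlap. In GFP-high 15 of 15 tested macrophage markers were at least 2-fold lower than in GFP-low and 7 of 19 fibroblast markers at least 2-fold higher, and their part in these and the other GFP-high values was not tested. Feeder removal left Ehmt2 at 164, 161 and 167 CPM on days 0, 4 and 9, a spread inside counting error, though by TPM the day 9 ratio was 0.17. Ehmt1 was at 77.8, 78.5 and 94.5 CPM on those days, higher on day 9 (log2 ratio 0.28, 0.14 to 0.43). In the density experiment Ehmt2 measured 196 CPM (epithelial-like) and 190 CPM (mesenchymal-like), whose ratio lay within counting error (-0.04, -0.18 to 0.10), and Ehmt1 at 118 and 84.0 CPM (-0.48, -0.69 to -0.29).

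Wiz separated the experiments more than the conditions. It was at 10.1, 10.7 and 12.2 CPM (78 to 150 counts) in the 3 feeder-removal libraries, and at 35.8 to 47.9 CPM in the other 9, with no overlap. Within the density experiment it was at 47.9 and 37.7 CPM (log2 ratio -0.34, -0.66 to -0.04). Within the GFP series it was at 37.6, 35.8 and 47.0 CPM, higher in GFP-high than GFP-low (0.31, 0.11 to 0.54).

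Suv39h2 varied most within experiments, and not in the order of dose. It was at 43.1 CPM with DMSO and at 45.3, 122 and 73.1 CPM with 0.5, 1 and 2 µM UNC0638, or 216, 235, 700 and 319 counts. The 0.5 µM library was level with DMSO (log2 ratio 0.07, -0.20 to 0.34), the 1 µM library was highest (1.48, 1.28 to 1.73) and the 2 µM library lay between (0.75, 0.51 to 1.02). In the GFP series it was at 48.4, 138 and 118 CPM, so both GFP-mid (1.49, 1.35 to 1.68) and GFP-high (1.27, 1.12 to 1.46) exceeded GFP-low more than 2-fold. Of 15 tested macrophage markers, 0 differed 2-fold between GFP-mid and GFP-low, and 2 were higher and 3 lower by at least 0.32 on the log2 scale. Their part in the Suv39h2 values was not tested. After feeder removal it was at 127, 125 and 81.2 CPM, lower on day 9 (-0.64, -0.78 to -0.52). In the density experiment it was at 55.4 CPM in the epithelial-like and 106 CPM in the mesenchymal-like library (0.92, 0.70 to 1.17), short of 2-fold but past it when centred on the germ cell markers (1.21). The fold between its lowest and highest library exceeded that of 81.8%, 85.8%, 96.4% and 95.5% of the 14301 genes in the feeder-removal, density, GFP and inhibitor experiments.

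Its paralogue Suv39h1, whose product shares its trimethylating activity, had log2 ratios no larger than 0.34 in the 9 comparisons (0.38 when centred and 0.46 by TPM, each on day 9). Suv39h1 was at 157, 165, 159 and 141 CPM with DMSO and the rising doses, and none of the 3 intervals against DMSO excluded 0. It was at 194, 170 and 164 CPM in GFP-low, GFP-mid and GFP-high (log2 ratio -0.24, -0.35 to -0.14, between high and low, but -0.08 when centred and -0.09 by TPM), opposite in sign to Suv39h2. It was at 159, 181 and 202 CPM on days 0, 4 and 9 (0.34, 0.24 to 0.44, at day 9), again opposite to Suv39h2. The ratio of Suv39h2 to Suv39h1 by TPM was 0.178, 0.178, 0.497 and 0.336 along the doses. It was 0.162, 0.526 and 0.466 along the GFP fractions, 0.517, 0.446 and 0.260 along the days, and in the density experiment 0.230 (epithelial-like) and 0.498 (mesenchymal-like). Suv39h1 was the more abundant per length in each of the 12 libraries. The gene body of Suv39h2 (chr2:3455815-3474986) overlaps that of Dclre1c by 18397 bases, and no strand setting is given in the sources used here. Dclre1c itself was at 3.76 to 10.8 CPM in the 12 libraries, with 5.39, 4.81, 6.28 and 10.8 CPM along the doses, and how reads in the shared bases were assigned was not tested.

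**Figure D2:**
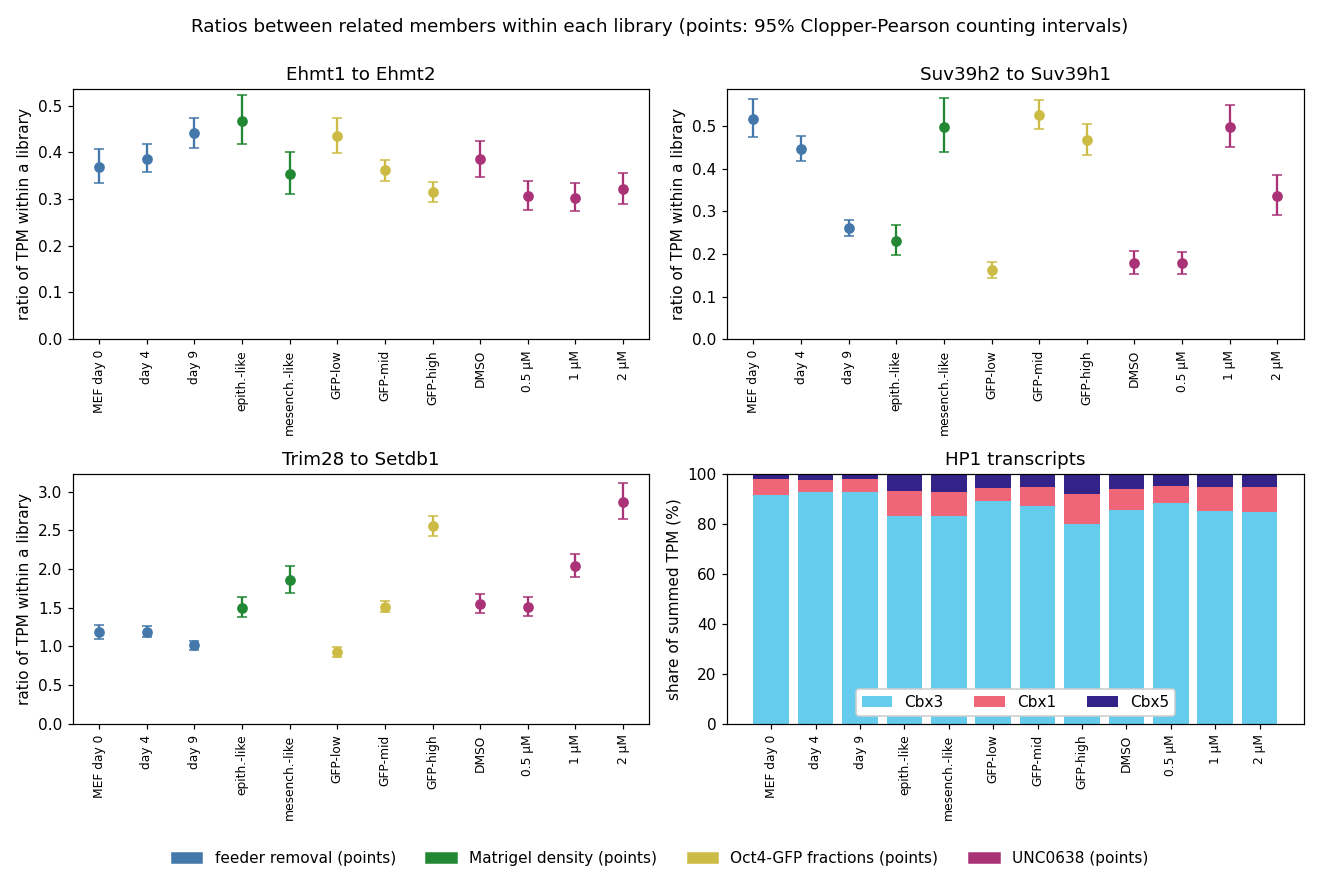
Ratios of TPM between related members within each of 12 libraries (points with 95% counting intervals, linear axes from 0, coloured by experiment) and, bottom right, the shares of Cbx3, Cbx1 and Cbx5 in their summed TPM (%). Suv39h2 to Suv39h1 is 0.162 to 0.260 in 5 libraries, 0.336 with 2 µM UNC0638 and 0.446 to 0.526 in the rest. Trim28 to Setdb1 is highest with 2 µM UNC0638 (2.87) and in GFP-high (2.55).

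Trim28 was higher at the upper doses of the inhibitor and in brighter cells. It was at 252, 243, 294 and 391 CPM with 0, 0.5, 1 and 2 µM UNC0638, level with DMSO at 0.5 µM (log2 ratio -0.05, -0.17 to 0.06, and -0.20 when centred on the germ cell markers) and higher at 1 µM (0.22, 0.11 to 0.33) and 2 µM (0.63, 0.53 to 0.74). In GFP-low, GFP-mid and GFP-high cells it was at 171, 261 and 446 CPM, a log2 ratio of 1.38 (1.29 to 1.47) between high and low and the largest increase of the 10 genes there. The macrophage markers moved with this step, with 15 of 15 tested at least 2-fold lower in GFP-high than GFP-low and none of the 16 at 0. What they contributed to the result was not tested. Between GFP-mid and GFP-low, Trim28 differed by 0.61 (0.52 to 0.70). On days 0, 4 and 9 it was at 159, 174 and 168 CPM, and in the density experiment at 251 CPM (epithelial-like) and 238 CPM (mesenchymal-like) (-0.08, -0.20 to 0.05).

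Setdb1, whose protein TRIM28 recruits, had the narrowest range of CPM over all libraries (1.44-fold) and differed in sign from Trim28 at 1 and 2 µM. By TPM its range was 1.73-fold and that of Cbx1 1.72-fold. It was at 236, 232, 208 and 197 CPM along the doses, lower at 1 µM (log2 ratio -0.18, -0.30 to -0.06) and 2 µM (-0.26, -0.39 to -0.13, and -0.14 when centred). Along the GFP fractions it was at 267, 250 and 253 CPM, with no difference between high and low detectable beyond counting error (-0.08, -0.16 to 0.01, and 0.09 when centred). It was at 194, 211 and 239 CPM on days 0, 4 and 9 (0.30, 0.21 to 0.39, at day 9), and at 241 CPM in the epithelial-like against 185 CPM in the mesenchymal-like library (-0.38, -0.52 to -0.25). The ratio of Trim28 to Setdb1 by TPM, a pair chosen after the values were seen, was 1.54, 1.51, 2.04 and 2.87 along the doses and 0.928, 1.51 and 2.55 along the GFP fractions. Both genes overlap a neighbour in RefSeq, Setdb1 with Cers2 over 75 bases and Trim28 with the predicted gene Gm31649 over 438 bases, so a few of their reads could belong to it.

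Among the HP1 genes Cbx3 made up most of the transcripts, and over all 12 libraries and along the GFP fractions it had the widest range of CPM. Within the feeder-removal and inhibitor experiments its range was the narrowest of these genes (1.13-fold and 1.17-fold). By TPM, Cbx3 was 79.9% (GFP-high) to 92.7% (days 4 and 9) of the summed HP1 level, Cbx1 5.04% to 12.03% and Cbx5 2.02% to 8.03%. Cbx3 was at 534, 410 and 237 CPM in GFP-low, GFP-mid and GFP-high, a log2 ratio of -1.17 (-1.25 to -1.10) between high and low and the only member more than 2-fold lower there. Between GFP-mid and GFP-low the ratio was -0.38 (-0.44 to -0.32), and -0.21 when centred. The summed HP1 level per length was accordingly 587, 480 and 323 TPM. The same 15 of 15 macrophage markers were lower in GFP-high, and their part in this result was not tested either. Cbx3 was at 702, 719 and 792 CPM on days 0, 4 and 9, above each of the other 9 libraries (237 to 534 CPM). With UNC0638 it was at 416, 438, 378 and 375 CPM along the doses, slightly lower than DMSO at 1 µM (-0.14, -0.23 to -0.05) and 2 µM (-0.15, -0.24 to -0.05). With centring on the germ cell markers the latter was -0.03. In the mesenchymal-like library it was at 296 CPM against 385 CPM in the epithelial-like one (-0.38, -0.49 to -0.27).

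Cbx5 was lower with the inhibitor at each dose. It was at 155 CPM with DMSO and at 125, 121 and 120 CPM with 0.5, 1 and 2 µM (log2 ratios -0.30, -0.36 and -0.37, each interval below 0). These 3 ratios share the DMSO library, and the 3 treated libraries differed little among themselves. It was also lower in GFP-high (126 CPM) and GFP-mid (125 CPM) than GFP-low (179 CPM), with a log2 ratio of -0.50 (-0.62 to -0.39) between high and low. It was at 81.2, 91.3 and 94.4 CPM on days 0, 4 and 9, under each of the other 9 libraries (120 to 179 CPM). Cbx1, at 21.4 to 34.5 CPM (95 to 369 counts), had wide intervals. Along the doses it was at 26.9, 23.7, 29.5 and 30.2 CPM, and no interval excluded 0. It was lower on day 4 (26.5 CPM) than on day 0 (34.5 CPM), with a log2 ratio of -0.37 (-0.62 to -0.14), and in the mesenchymal-like library (22.9 against 31.2 CPM; -0.43, -0.84 to -0.05). Its gene body overlaps the transcribed pseudogene Gm11517 by 2825 bases in RefSeq, and how reads there were assigned was not tested.

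**Figure D3:**
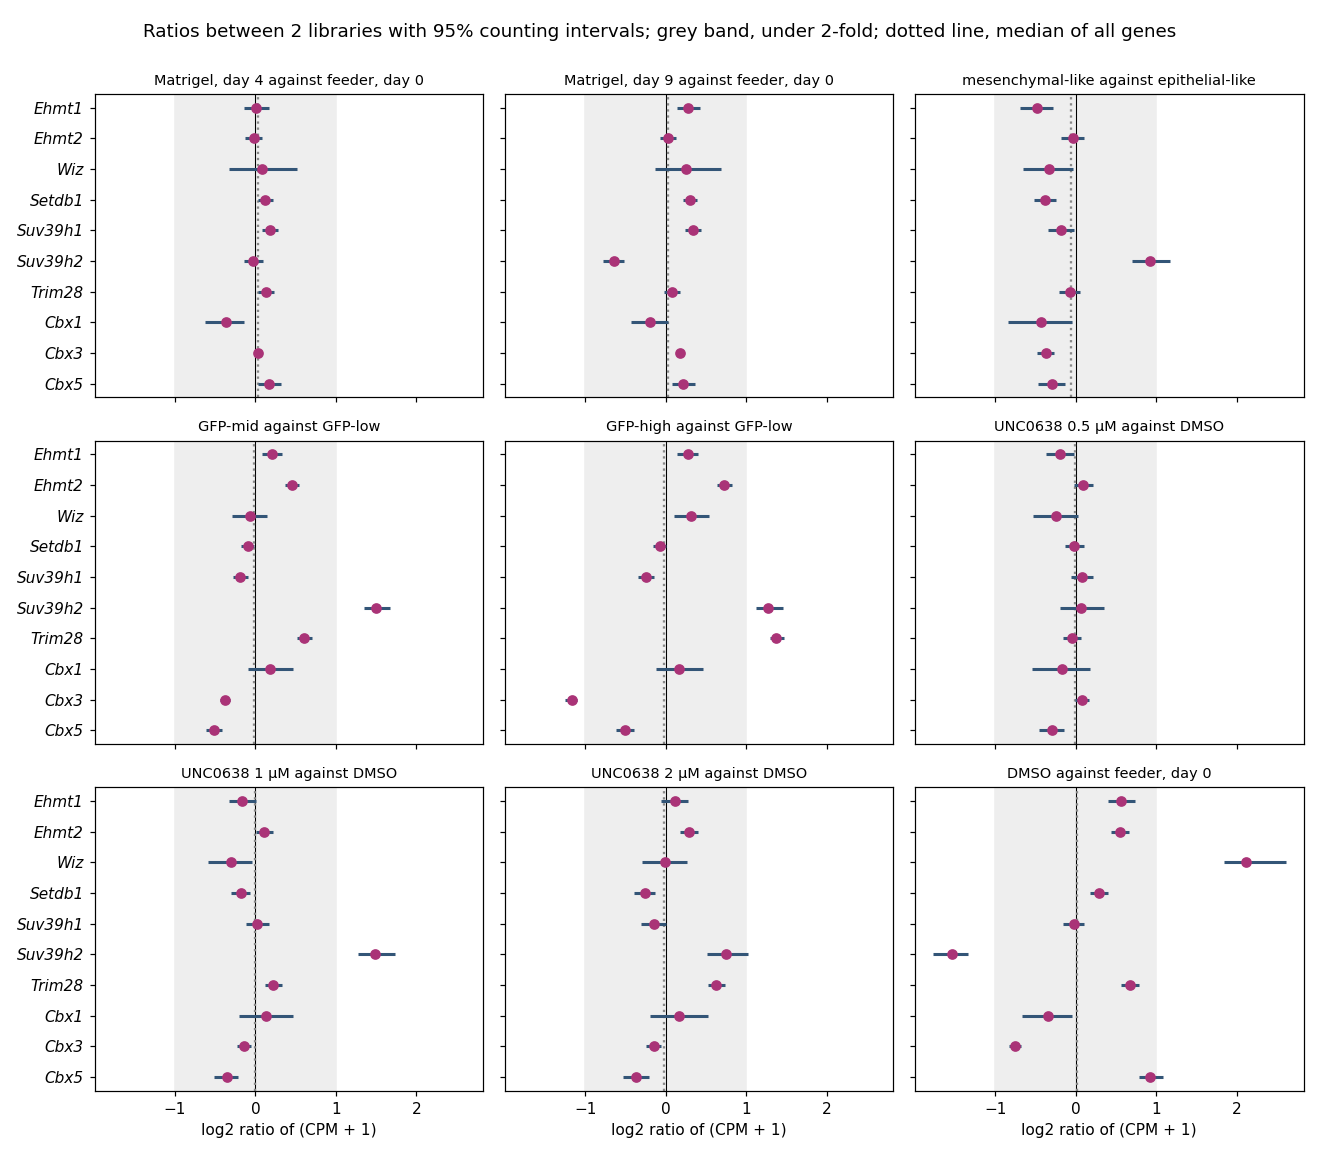
log2 ratio of (CPM + 1) between 2 libraries for the 10 genes in 9 comparisons (points), with 95% counting intervals (lines), the range under 2-fold (grey) and the median of all 14301 genes (dotted). Outside the grey band lie Suv39h2 in 4 panels, Trim28 and Cbx3 for GFP-high, and Wiz for DMSO against day 0.

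Members past 2-fold were counted beside the share of all genes, and a count out of 10 says little at such shares. Against DMSO, 0 of 10 members differed at least 2-fold at 0.5 µM (3.71% of all genes), 1 at 1 µM (Suv39h2, against 6.71%) and 0 at 2 µM (7.01%). A smaller threshold, 0.32 on the log2 scale, was passed upwards by 0 members at 0.5 µM (14.4% of all genes), by 1 at 1 µM (17.8%) and by 2 at 2 µM, Suv39h2 and Trim28 (22.6%). It was passed downwards by 0, 1 and 1 members, the latter being Cbx5 both times, against 17.4%, 19.3% and 23.4%. Centred on the germ cell markers, 4 members were past it downwards at 0.5 µM (Ehmt1 -0.34, Wiz -0.40, Cbx1 -0.32 and Cbx5 -0.45), 1 at 1 µM and 0 at 2 µM (Cbx5 -0.25), and 3 were past it upwards at 2 µM, with Ehmt2 (0.41) added. The markers' median, subtracted from every gene, was 0.15 at 0.5 µM and -0.12 at 2 µM. Of all genes, those past the threshold in either direction went from 4549 to 5407 at 0.5 µM and from 6584 to 6729 at 2 µM. Their shares by direction were not counted when centred. The members' median log2 ratios were -0.04, -0.06 and 0.05, and those of all genes -0.01, -0.00 and -0.02. When centred the members' medians were -0.18, -0.07 and 0.17, and by TPM that at 2 µM was -0.0062. Fibroblast markers differed between these libraries, with 11, 18 and 16 of 19 tested at least 2-fold lower than with DMSO at 0.5, 1 and 2 µM. Their part in the members' values was not tested. By point values, levels higher at every dose step were found for 1 member, Ehmt2 (6.50% of all genes), and lower at every step for 2, Setdb1 and Cbx5 (7.81%). The first step of Ehmt2 and that of Setdb1 (-0.02, -0.14 to 0.10) lay within counting error. With DESeq2 size factors (8.27%) or total counts (7.59%) Setdb1 alone was lower at every step. With centring on the germ cell markers neither pattern held for a member (8.13% of all genes higher and 4.22% lower at every step).

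For the GFP fractions the members spread in both directions. Between GFP-high and GFP-low 3 of 10 differed at least 2-fold, Suv39h2 and Trim28 upwards and Cbx3 downwards (9.54% of all genes). The macrophage markers (15 of 15 at least 2-fold lower) and fibroblast markers (7 of 19 at least 2-fold higher, median 0.66) moved in the same comparison. Past the smaller threshold were 3 members upwards (26.9%) and 2 downwards (23.6%), and the median was 0.22 (0.38 when centred, 0.37 by TPM) against -0.02 for all genes. The 3 upwards became 6 with centring (with Ehmt1, Wiz and Cbx1) and 5 by TPM or total counts (with Ehmt1 and Wiz). Centring subtracts the markers' median (-0.16) from every gene. Of all genes 7224 were past the threshold in either direction, and 7053 with centring, 6748 by TPM and 6996 by total counts. Their shares by direction were not counted under these scalings. Between GFP-mid and GFP-low 1 differed 2-fold, Suv39h2 (4.07%), with 3 past the smaller threshold upwards (22.6%) and 2 downwards (17.0%), and a median of 0.05 (0.22 when centred, 0.12 by TPM) against -0.01. Centring gave 5 upwards and 1 downwards there, without Cbx3, which also was not past the threshold by TPM or total counts. The markers' median there was -0.17, and genes past the threshold in either direction went from 5668 to 5854 with centring. By point values Ehmt1, Ehmt2 and Trim28 were higher at both steps of GFP (24.5% of all genes), and Suv39h1 and Cbx3 lower at both (26.9%). No interval was computed for the step from GFP-mid to GFP-high, which was small for Ehmt1 (120 and 126 CPM) and Suv39h1 (170 and 164 CPM). By TPM Suv39h1 was not lower at both (16.9% of all genes were). Cbx1 was higher at both by TPM (33.6%) and by total counts (29.4%). Centring added Wiz to those higher (28.0%) and Cbx5 to those lower (19.6%).

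After feeder removal no member differed 2-fold on day 4 (2.28% of all genes) or day 9 (2.60%). On day 4 none passed the smaller threshold upwards (15.2%) and 1, Cbx1, did downwards (13.0%). On day 9 Suv39h1 passed it upwards (18.8%) and Suv39h2 downwards (14.8%). Upwards there were 2 with centring or total counts (with Setdb1) and 4 by TPM (with Ehmt1, Setdb1 and Cbx5). Of all genes 4800 were past it in either direction, and 4891 with centring, 4867 with total counts and 5054 by TPM. Their shares by direction were not counted under these scalings. By their point values 6 members, Ehmt1, Wiz, Setdb1, Suv39h1, Cbx3 and Cbx5, were higher at both steps from day 0 to 4 to 9, against 19.8% of all genes, and 1, Suv39h2, was lower at both (17.9%). The day 4 step of Ehmt1, Wiz, Cbx3 and Suv39h2 lay within counting error. No interval was computed for the step from day 4 to 9, which was small for Wiz (127 and 150 counts) and Cbx5 (91.3 and 94.4 CPM). The 6 became 4 with DESeq2 size factors (without Ehmt1 and Cbx3) and 5 with total counts (without Ehmt1), against 18.7% and 21.5% of all genes. They were 5 with centring (without Ehmt1 and Cbx3, with Trim28) and 8 by TPM (with Ehmt2 and Trim28), against 25.2% and 30.0%. The median on day 9 was 0.19 against 0.02 for all genes, and 0.31 with the deposited TPM. On day 4 it was 0.06 (0.01 when centred, 0.02 with DESeq2 size factors) against 0.03.

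In the mesenchymal-like library 9 of 10 members had lower point values than in the epithelial-like one and only Suv39h2 a higher one. The share of all genes lower by any amount was not counted. Of the 9, Ehmt2 (-0.04, -0.18 to 0.10) and Trim28 (-0.08, -0.20 to 0.05) lay within counting error. Centred on the germ cell markers, Suv39h1 (-0.18, then 0.11), Trim28 (-0.08, then 0.22) and Ehmt2 (-0.04, then 0.25) were higher instead. No member passed 2-fold (12.5% of all genes), 5 were past the smaller threshold downwards (24.0%) and 1 upwards (26.2%), and the median was -0.32 against -0.06. Fibroblast markers moved with this comparison, with 18 of 19 tested at least 2-fold higher, and germ cell markers were lower, with a median of -0.29 over 20. With ratios centred on that germ cell median the members' median was -0.03, none of the 5 was past the smaller threshold (Ehmt1 -0.19, Wiz -0.04, Setdb1 -0.09, Cbx1 -0.13 and Cbx3 -0.08), and Suv39h2 was past 2-fold upwards. Of all genes, 1781 were past 2-fold without this centring and 2289 with it. The part of the fibroblast RNA in the members' values was not tested.

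The size of differences between experiments can be seen from DMSO against day 0, since neither culture had inhibitor and each was grown on feeders. Wiz was more than 2-fold higher with DMSO (47.1 and 10.1 CPM, log2 ratio 2.11, 1.84 to 2.61) and Suv39h2 more than 2-fold lower (43.1 and 127 CPM, -1.54, -1.78 to -1.35), 2 of 10 members against 19.4% of all genes. Past the smaller threshold 5 members were higher (33.5%) and 3 lower (31.0%), with a median of 0.41 against 0.01. Centred on the germ cell markers they were 7 (with Setdb1 and Suv39h1) and 2 (without Cbx1), and Trim28 (1.02) and Cbx5 (1.28) passed 2-fold too. That centring subtracts the markers' median (-0.35) from every gene. Of all genes, those past 2-fold went from 2776 to 3510 (3062 higher and 448 lower). Those past the smaller threshold in either direction went from 9225 to 9649. Without centring, Trim28 (0.67, 0.56 to 0.78), Ehmt2 (0.55, 0.43 to 0.67) and Cbx5 (0.92, 0.78 to 1.09) were among the 5 higher, and Cbx3 (-0.75, -0.83 to -0.68) among the 3 lower. For 9 of 10 members, all but Suv39h1, the difference between these libraries was larger in size than that between DMSO and any dose of UNC0638. Both sizes rest on the same DMSO library, so they are not independent of each other. The day 0 culture is not labelled as given DMSO. For Suv39h2 (1.54 and 1.48), Trim28 (0.67 and 0.63) and Setdb1 (0.28 and 0.26) the margin was small. The 9 became 8 with centring (without Suv39h2 and Cbx1, with Suv39h1), by TPM (without Setdb1) and by total counts (without Trim28). Fibroblast markers differed too, 16 of 19 at least 2-fold higher with DMSO, and their part was not tested.

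The members did not vary as a unit. Over the 12 libraries the 45 pairs had Pearson correlations of log2(CPM + 1) from -0.86 to 0.92 with a median of -0.06, 20 of them positive and 25 negative. These libraries belong to 4 experiments, so the values describe and test nothing. The highest was Ehmt2 with Trim28 (0.92, and 0.95 after the mean of each experiment was removed). The lowest was Trim28 with Cbx3 (-0.86, and -0.86 after removal). Ehmt2 and Ehmt1 correlated at 0.79 (0.50 after removal), and Suv39h1 with Ehmt2 at -0.42. Among 9588 other genes averaging 10 CPM or more, the 3 most like Ehmt2 were Pdcd11 (0.96), Pcnxl3 (0.94) and Ddr1 (0.94), and 12 exceeded Trim28.

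Other genes of H3K9 methylation were described as lists, in which no gene differed 2-fold at any dose of the inhibitor (3.71%, 6.71% and 7.01% of all genes did). The counts past the smaller threshold at 2 µM stand against 22.6% of all genes upwards and 23.4% downwards. G9a and GLP partners (Zfp644, Zfp462, Cdyl and Cdyl2) had 1 of 4 past the smaller threshold upwards at 2 µM, Zfp462 (52.7 and 74.9 CPM with DMSO and 2 µM, log2 ratio 0.50, 0.27 to 0.75), and 1 lower, Zfp644 (108 and 83.2 CPM, -0.37, -0.57 to -0.18). Of 8 tested cofactors of SETDB1 and TRIM28, 2 passed the smaller threshold upwards at 2 µM: Mphosph8, listed as 4930548G07Rik, a chromodomain subunit of the HUSH silencing complex (179 and 250 CPM, 0.48, 0.35 to 0.61), and Morc2a, an ATPase that works with HUSH (90.2 and 123 CPM, 0.44, 0.26 to 0.63). None was lower.

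Among 11 H3K9 demethylases, which remove the mark, 1 passed the smaller threshold upwards at 2 µM, Kdm3b (listed as Jmjd1b; 41.5 and 58.4 CPM, 0.48, 0.22 to 0.76), and 2 were lower. Kdm3a (Jmjd1a) was the lowest of them, at 126 and 79.9 CPM (-0.65, -0.85 to -0.47), and the other was Phf8 (-0.38). Of the 3 tested other H3K9 methyltransferases, 1 was lower at 2 µM, Setdb2 (42.9 and 28.9 CPM, -0.56, -0.90 to -0.25), and none higher. Of 10 HP1 partners and downstream factors, 1 was higher, Pogz (0.35), and none lower. At 0.5 µM 4 of 11 demethylases were lower and 0 higher (17.4% and 14.4% of all genes), with a list median of -0.11. List medians at 2 µM lay between -0.14 (HP1 partners) and 0.11 (SETDB1 and TRIM28 cofactors). Centred on the germ cell markers, 5 of 11 demethylases were higher and 1 lower at 2 µM, and 0 higher and 5 lower at 0.5 µM. At 2 µM the cofactors then had 3 higher, the HP1 partners 2 higher, and the G9a and GLP partners 1 higher and 0 lower. Centring subtracts the markers' median, -0.12 at 2 µM and 0.15 at 0.5 µM, from every gene. The shares of all genes above are without centring and were not counted by direction with it.

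In GFP-high against GFP-low, 1 of 4 G9a and GLP partners passed the smaller threshold upwards and 0 downwards (26.9% and 23.6% of all genes), with a median of -0.17, and 3 of 10 HP1 partners upwards and 2 downwards, with a median of 0.12. Centring, which subtracts the markers' median (-0.16) from every gene, gave medians of -0.01 and 0.29, with 5 HP1 partners upwards and 1 downwards. The shares of all genes by direction were not counted when centred, here and for the demethylases below. Uhrf1, a factor that links H3K9 methylation to maintenance of DNA methylation, was at 788, 486 and 460 CPM in GFP-low, GFP-mid and GFP-high (log2 ratio -0.77, -0.83 to -0.72, between high and low). Cdyl, a chromodomain protein, was at 24.6, 31.3 and 44.5 CPM (0.83, 0.61 to 1.11), while the other 3 G9a and GLP partners had log2 ratios of -0.16 (Zfp644), -0.19 (Zfp462) and -0.23 (Cdyl2). Adnp, an HP1-binding zinc finger protein, was at 40.0, 54.2 and 67.6 CPM (0.74, 0.56 to 0.96). In the mesenchymal-like library 7 of 11 demethylases passed the smaller threshold downwards and 1 upwards (24.0% and 26.2% of all genes), with a list median of -0.34. Germ cell markers had a median of -0.29 there, and centred on it the list median was -0.05, with 1 demethylase past the threshold downwards and 3 upwards. Fibroblast markers were higher there, 18 of 19 at least 2-fold, and their part was not tested. Kdm3a was at 117 and 75.1 CPM there (-0.64, -0.85 to -0.44).

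Genes reported to be silenced through G9a in embryonic stem cells, 8 genes of the Magea family with Wfdc15a and Tuba3a, were looked at as a readout of the inhibitor. Of 9 that passed the filter, none differed 2-fold at any dose (3.71%, 6.71% and 7.01% of all genes did), which at these shares says little about a list of 9. At 2 µM 1 passed the smaller threshold upwards, Magea4 (1.40 and 2.75 CPM, 7 and 12 counts, 0.65, -0.49 to 2.56), and 1 lower, Magea6 (13.97 and 9.16 CPM, -0.56, -1.21 to -0.03), with a list median of -0.03 (3 and 1 of 9 when centred). Centring subtracts the markers' median (-0.12) from every gene there, and the shares of all genes by direction were not counted with it. Tuba3a was expressed without inhibitor, at 1865 CPM with DMSO and 1587 CPM at 2 µM (-0.23, -0.28 to -0.19). The Magea genes are near-identical copies, so their separate values are uncertain.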

How the data were processed

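RNA from 12 libraries was read by a modified Smart-seq2 protocol, per the labels' protocols. Reads were trimmed with Trim Galore and quantified with RSEM, with mm10 as the build, per the submitters' processing notes. The aligner, annotation release and strand setting are not given in the sources used here. The deposited expected counts are RSEM's estimated counts per gene, not normalized by the authors, and were rounded here. TPM, also deposited, is scaled to transcript length and to the library, per the file headers, and the deposited lengths are means over a gene's transcripts, per the file headers. Between 8.52% and 10.7% of genes had counts that were not whole, among them Setdb1, Trim28 and Cbx3 in some libraries, which is how reads shared with other genes appear.

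CPM were computed with TMM factors (0.912 to 1.07) from edgeR 4.0.16 in R 4.3.3, and DESeq2 1.42.0 gave the size factors of an alternative. Levels between genes are TPM. Comparisons are log2 ratios of CPM + 1, over genes averaging 1 CPM or more, with 95% Clopper-Pearson intervals of the read split, computed without the pseudocount. Amplified reads carry no molecular identifiers, so intervals take each read as its own molecule. The steps were tested on simulated counts that held only counting error, the library totals and a set of changed genes. That test does not cover variation between real libraries. The members and lists were chosen with earlier results of these data known. Genes named are all members, genes of the lists (chosen among them with values seen), and the 3 genes with the highest correlation to Ehmt2. Listed genes were matched by symbol or RefSeq transcript (GRCm38.p6); 47 pathway genes were matched and 1 is not reported here. The 4 ATAC-seq libraries were not analysed here. Scripts ran in Python 3.11.15 (scipy 1.17.1, pandas 2.3.3, numpy 2.4.6) and figures in matplotlib 3.10.9.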

Additional observations from a re-analysis of the deposited data

How the results depend on the processing

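Depth of 4335185 to 12019651 counts limits Wiz and Cbx1 most. Each of 90 member ratios was recomputed under 8 alternatives. All 90 stayed within their counting intervals with DESeq2 size factors, no filter, a filter at 10 CPM and a pseudocount of 0.1, 89 with a pseudocount of 5, 87 with total counts and 76 with the deposited TPM. Centring on the germ cell markers moved 39. It changed the sign of 15, of which 3 had intervals that excluded 0: Cbx1 between DMSO and day 0 (-0.34 to 0.0088), Suv39h1 in the density comparison (-0.18 to 0.11) and Setdb1 in GFP-mid (-0.09 to 0.07). Total counts changed the sign of 3, and DESeq2 size factors and TPM of 2 each, none with an interval that excluded 0. The centring shifts all ratios of a comparison by the markers' median, -0.29 for the density comparison and -0.35 for DMSO against day 0. It moved the members' medians there to -0.026 and 0.77, and the members at 2-fold from 0 to 1 and from 2 to 4. All genes at 2-fold went from 1781 to 2289 and from 2776 to 3510. The deposited TPM moved the median on day 9 to 0.31, and the cause was not tested. In the GFP comparisons, at 0.5 and 2 µM and on day 4 centring also moved medians by over 1.5 times, as given with those results. The other counts of members at 2-fold were equal under every alternative run.

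Counts of all genes at 2-fold depended on the pseudocount and filter. In the order day 4, day 9, density, GFP-mid, GFP-high, 0.5, 1 and 2 µM and DMSO against day 0, they were 326, 372, 1781, 582, 1364, 531, 960, 1003 and 2776. With a pseudocount of 5 they were 17, 30, 1004, 182, 521, 76, 302, 228 and 1299. At 10 CPM they were 29, 84, 680, 280, 622, 96, 303, 285 and 1507. With the pseudocount at 0.1, 7 of the 9 were over 1.5 times higher (day 4, day 9, GFP-mid, GFP-high and the 3 doses), at 1031, 1025, 1267, 2150, 1169, 1656 and 1751. Past the smaller threshold of 0.32 (log2) they were 4032, 4800, 7186, 5668, 7224, 4549, 5294, 6584 and 9225, and 1622, 2376, 4050, 3280, 4363, 1913, 2522, 3633 and 5846 at 10 CPM. A pseudocount of 5 left 2042, 2736, 3716, 2720 and 3460 for day 4, day 9, GFP-mid, 0.5 and 1 µM. Without the filter day 4 had 6099. Centring moved the share of 2-fold calls that were higher from 85.7% to 95.9% (density), 83.2% to 94.1% (GFP-mid), 72.8% to 83.9% (GFP-high), 42.6% to 24.0% (0.5 µM), 48.8% to 64.5% (2 µM) and 62.8% to 87.2% (DMSO against day 0). The 36 changes of within-library ratios kept their sign when computed from counts and moved by less than counting error. The change of Ehmt1 to Ehmt2 went from 0.07 to 0.04 on day 4, from 0.06 to 0.01 for DMSO against day 0 and from -0.26 to -0.18 at 2 µM. Signs, members past the smaller threshold, the size of DMSO against day 0 beside the doses, centred lists, the orders along days, GFP and dose under other scalings, and the Trim28 to Setdb1 and Cbx3 to Cbx5 ratios were alternatives chosen after seeing the data. No paired analysis was possible because each RNA group had 1 library.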
